A study of Drosophila melanogaster with 8 samples.

Results

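The regions described here are the autosomal promoters that were accessible in all 4 sorted pools of fly brain neurons, called shared promoters below. Peaks of 4 lists were merged wherever they overlapped by at least 1 bp, which gave 14722 regions, of which 11990 lay on the autosomes (2L, 2R, 3L, 3R and 4). Of these, 6926 held a peak of each of the 4 lists. A region was a shared promoter when it also came within 50 bp of an annotated transcription start site, and 4105 regions met this rule. The regions were thus selected on the presence of peaks in all 4 lists and chosen by their distance to a start site, and neither is a finding.

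The data were ATAC-seq profiles, in which the Tn5 transposase inserts adapters into open DNA, of neurons from the adult Drosophila melanogaster central brain. A GFP reporter of transcription from fruitless (fru) was used to sort the cells, and the study asked how chromatin differs with sex, fru transcription and the male-specific protein FruM. The groups were the fru+ neurons of males, those of females, and the fru- neurons of each sex, with 2 samples in each and 1 pooled peak list per group. All groups had the strain background w1118, were adults aged 2-7 days, and carried UAS-mCD8-GFP, MB247-Gal80 and Fru-GAL4 over a TM2 or TM6B balancer. The fru- pools were the GFP-negative cells, and among the fru+ neurons only those of males make FruM protein. Gal80 silenced the reporter in γ Kenyon cells, so these cells went to the fru- pools, and both optic lobes were removed. The paper counts γ Kenyon cells among the neurons that transcribe fru. Male GFP-negative cells can thus not be taken as wholly free of FruM. Brains of many animals were pooled for each sample, so that a pool is a mixture of many neuron types.

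A promoter is the stretch of DNA around a transcription start site on which RNA polymerase and the general factors assemble. At promoters in use the DNA just upstream of the start is kept free of nucleosomes, and this gap is what the transposase cuts. In flies many broadly used genes have promoters with a DRE or Ohler motif 1, bound by the factors DREF and M1BP, whereas tightly regulated genes more often have a TATA box. Many fly genes also lie head to head, with both starts in a single open stretch, and such pairs are called divergent promoters.

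The 8 sequences below show what the shared promoters look like at the base level, with examples of strong, narrow, unequal and divergent promoters. Each promoter runs from 120 bases before the start site to 30 bases from the start onwards, in the direction of transcription. The sequence is that of the dm6 reference (RefSeq Release 6), and capitals mark the motifs listed further on, on either strand, except that TCAGT is marked only on the sense strand with its A within 5 bases of the start. The transcription factor gene mid was among the 5 strongest and carries an initiator at its start (chr2L:5461519-5461668, plus strand).
mid: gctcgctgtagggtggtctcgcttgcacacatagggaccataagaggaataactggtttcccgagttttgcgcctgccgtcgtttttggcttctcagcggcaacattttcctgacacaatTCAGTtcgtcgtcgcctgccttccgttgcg
The gene tRNA:Arg-TCG-4-1, read by RNA polymerase III, had a peak of like strength and a TATA motif on the opposite strand (chr3R:5388108-5388257, plus strand).
tRNA:Arg-TCG-4-1: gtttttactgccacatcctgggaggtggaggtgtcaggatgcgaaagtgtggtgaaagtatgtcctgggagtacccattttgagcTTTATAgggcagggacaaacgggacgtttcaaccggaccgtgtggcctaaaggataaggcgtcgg
The heat shock gene Hsp70Ba carries GAGA motifs and a TATA motif (chr3R:12467747-12467896, minus strand).
Hsp70Ba: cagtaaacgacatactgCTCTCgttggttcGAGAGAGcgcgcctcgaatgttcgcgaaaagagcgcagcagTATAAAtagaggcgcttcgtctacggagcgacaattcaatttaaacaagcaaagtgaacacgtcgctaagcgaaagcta
The general factor gene Taf1 carries Ohler motif 1 just after its start (chr3R:6646769-6646918, plus strand).
Taf1: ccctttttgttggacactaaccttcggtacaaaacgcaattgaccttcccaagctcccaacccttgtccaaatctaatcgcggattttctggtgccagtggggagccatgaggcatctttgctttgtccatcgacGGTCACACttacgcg
The kinase gene polo had the lowest mean width over the lists and carries an E-box (chr3L:20309927-20310076, plus strand).
polo: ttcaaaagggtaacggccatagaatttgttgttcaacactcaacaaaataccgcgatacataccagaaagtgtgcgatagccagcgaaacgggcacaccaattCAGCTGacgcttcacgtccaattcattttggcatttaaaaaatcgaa
The adhesion gene beat-IIb, shown at the downstream one of its starts, was strongest in male fru+ and has an initiator (chr3R:17247848-17247997, minus strand).
beat-IIb: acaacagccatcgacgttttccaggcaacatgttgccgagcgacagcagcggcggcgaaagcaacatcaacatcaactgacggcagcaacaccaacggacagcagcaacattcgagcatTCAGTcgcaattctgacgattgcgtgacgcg
The centriole gene asl was weakest in male fru+ and has no motif marked in this stretch (chr3R:5606514-5606663, minus strand).
asl: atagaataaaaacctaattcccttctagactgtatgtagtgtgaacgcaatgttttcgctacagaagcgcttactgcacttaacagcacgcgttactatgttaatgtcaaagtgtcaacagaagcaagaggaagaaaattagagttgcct
The last is the closest divergent pair, Atg6 to the left on the minus strand and Pisd to the right on the plus strand, printed on the plus strand with both start bases in capitals (chr3R:24050753-24050812).
Atg6/Pisd: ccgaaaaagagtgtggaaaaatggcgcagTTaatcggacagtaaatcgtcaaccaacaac

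Some properties of the lists bear on every value. Each list held between 11218 and 11607 peaks. The deposited lists give no value per sample, so groups could not be tested against each other for want of replicate values, and each difference below is a difference between 4 lists. The ranges given with shares are 95% intervals after Wilson and hold counting error alone. The free-text labels of the female fru+ and male fru- samples each name the other group, and the groups here follow the titles. The X share of peaks followed sex by title, at 15% in both male lists and 20% in both female lists. The number of peaks over the fru gene followed the sort, with 17 in the male and 13 in the female fru+ list, against 7 and 6 in the male and female fru- lists. Without the female fru+ and male fru- lists, 4246 autosomal promoters held peaks of both male fru+ and female fru-, close to the 4105 of all 4 lists. Peaks of the male lists are named after replicate 1 and peaks of the female lists after replicate 2, although the labels call the lists pooled. If the names hold, sex and replicate cannot be told apart.

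Promoters were shared between pools far more often than other regions. Of 4650 autosomal regions at a start site, 88.3% (87.3 to 89.2%) held peaks of all 4 lists, against 38.4% (37.3 to 39.6%) of the 7340 autosomal regions elsewhere. A region that reaches a start site is more often a wide one, and the part of width in this difference was not tested. Promoter regions of 3, 2 and 1 lists numbered 222, 142 and 181. Of those in 3 lists, 58 lacked only the male fru+ peak, 100 only the female fru+ peak, 19 only the male fru- peak and 45 only the female fru- peak. At the edge of the rule, 4051 shared promoters held the start site itself and 54 lay 1 to 50 bp from it. Fold enrichment, called fold below, is the signal at the summit over the local background as MACS2 gives it, and its value for a region is the mean over the lists unless a list is named. Its median was 4.39 in those 54 and 4.24 in the 35 regions lying 51 to 100 bp away. The 222 promoters of 3 lists had a median fold of 3.16, against 6.79 in the shared promoters. Whether a missing peak lay below the calling threshold was not tested.

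Shared promoters made up a similar part of the shared regions on each chromosome arm. They were 57.3% of such regions on 2L, 61.9% on 2R, 58.8% on 3L, 58.8% on 3R and 62.3% on the small chromosome 4, where only 106 regions were counted and the interval was 52.8 to 70.9%. Over all arms the part was 59.3% (58.1 to 60.4%). The 66 shared promoters of chromosome 4, which is largely heterochromatic, had a median fold of 7.41 and a median width of 927 bp, against 6.70 to 6.85 and 812 to 835 bp on the other arms.

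A shared promoter was found at the start of 5079 of 11749 autosomal protein-coding genes, or 43.2%. Another 508 such genes had a promoter peak in only 1 to 3 lists, and 6162 had none. Over genes of any type the share was 36.4%. The genes with a shared promoter were longer, with a median of 3584 bp against 1517 bp for genes with no promoter peak, and had 1.62 against 1.20 annotated start sites on average. A gene with more start sites has more chances to meet the rule.

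Genes that every cell uses were mostly among them, set against the 43.2% of all protein-coding genes. The lists of genes were taken by symbol. Of the cytosolic ribosomal protein genes, 64 of 78 had a shared promoter (82.1%, 72.1 to 89.0%). RpL15 was the strongest of them, at a fold of 11.2 in male and 12.1 in female fru+ neurons, against 13.3 in male and 13.2 in female fru- neurons. RpL34a was the weakest, at 2.50, 2.97, 2.86 and 3.67 in the same order of pools. Of the 14 genes left out, 6 had a promoter peak in fewer lists, and RpL8, RpS5b, RpS10a, RpS19b, RpL10Aa, RpL22-like, RpL37-2 and RpS28-like had none. Other genes named as copies, RpL24-like, RpL7-like and RpLP0-like, had a shared promoter, each in a region that also held the start of another gene. Mitochondrial ribosomal protein genes had 50 of 62, Mediator subunits 19 of 23 and the Taf genes, subunits of TFIID and its relatives, 12 of 13, with Taf12L as the one left out.

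In the proteasome and the respiratory chain, copies with a suffix in their name rarely had a shared promoter. Of the proteasome genes, 23 of 42 had a shared promoter, a share of 54.8% whose interval (39.9 to 68.8%) held the background of 43.2%. Only 1 of the 14 copies with the suffix T or R, many of them known as testis forms, was among the 23, against 22 of the other 28. The other genes without one were Prosalpha1, Prosalpha3, Prosbeta4, Prosbeta6, Rpn12 and Rpt2. Respiratory chain genes had 45 of 68. None of the 21 copies with the suffix L had a shared promoter, whereas 45 of the other 47 had, with ND-13A and ND-B14.7 as exceptions. For the vacuolar ATPase, a proton pump, the count was 15 of 31 (48.4%, 32.0 to 65.2%), which does not stand apart from the background.

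Neuronal genes were also well represented. All 3 neuron markers on autosomes, nSyb, brp and Syt1, had a shared promoter. Shared promoters have a peak in every pool, so they cannot show cell types present in only some pools. Of the 19 autosomal genes of the synaptic vesicle cycle and of transmitter synthesis and transport that could be matched, 18 had one (94.7%, 75.4 to 99.1%). Snap25, a SNARE protein of vesicle fusion, was the strongest, at 12.8 in male and 14.7 in female fru+ neurons, against 13 in male and 14.0 in female fru- neurons. Rim, an active zone protein, was the weakest, at 3.59, 3.13, 3.66 and 3.30 in the same order. ChAT and VAChT, which make and load acetylcholine, share a single start region. VGlut and Gad1, which mark glutamatergic and GABAergic neurons, each had one in all pools too, and in a mixture of neurons fewer cells of a type and less accessible DNA per cell cannot be told apart. The exception was ple, tyrosine hydroxylase, which marks the few dopaminergic neurons and had no promoter peak in any list.

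Receptor and cell adhesion genes differed by family. Nicotinic receptor subunits had 7 of 8, with nAChRbeta3 left out. The dpr and DIP genes, whose immunoglobulin-domain products pair synaptic partners, had 25 of 27 (92.6%, 76.6 to 97.9%), with a median fold of 11.3 that was above the 6.79 of all shared promoters. DIP-zeta led at 15.1 in male and 12.9 in female fru+ neurons, against 14.0 in male and 13.9 in female fru- neurons. By contrast, 1 of 51 odorant receptor genes, 1 of 54 gustatory receptor genes and 3 of 49 ionotropic receptor genes had a shared promoter. All of these 5 regions also held the start of a neighbouring gene. Or63a lies beside CG34025, Gr63a beside Lamtor4, Ir75c beside Grd, Ir60e beside CG13585 and Ir60b beside Letm1. None of 66 cuticle protein genes (upper bound 5.50%) and 1 of 47 seminal fluid genes had one.

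Markers of other cell types were almost absent. Of 6 autosomal glial markers only nrv2 had a shared promoter, and Eaat1 had a promoter peak in some lists, while repo, alrm, wrapper and Gat had none. No muscle (0 of 3), haemocyte (0 of 4), fat body (0 of 2) or photoreceptor (0 of 3) marker had a promoter peak in any list. The reporter was silenced in γ Kenyon cells, which went to the fru- pools. All 6 Kenyon cell markers, ey, toy, dac, Mef2, sNPF and prt, still had a shared promoter, which by the rule includes the fru+ pools. The strongest, ey, stood at 15.7 in male and 13.9 in female fru+ neurons, against 11.7 in male and 12.9 in female fru- neurons at one of its start regions. At its other shared promoter the values were 7.75, 7.80, 7.99 and 7.59 in the same order, so the fru+ pools did not stand apart there. For RNA, the paper reports ey as enriched in the fru- cells of both sexes.

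A list of sex genes (fru, dsx, tra and tra2) and reported FruM targets (Lgr3, tei and robo1) had a shared promoter at 6 of 7. The fru gene itself has 7 annotated start sites, and its only shared promoter lay at the most upstream one, at position 18545586 of 3R on the minus strand, from which the sex-specific transcripts run. Its fold was 4.82 in male and 5.0 in female fru+ neurons, against 5.36 in male and 5.35 in female fru- neurons, and its width was 2091, 1956, 1967 and 1960 bp in that order. Values at this start were thus close in all pools, which were sorted on a reporter of the same gene. The region of dsx, the other sex-specific transcription factor gene, ended short of the downstream one of its 2 start sites and entered by the 50 bp window, with the summit at -846 bp (minus for upstream) in every list. The fold of dsx was 12.5, 11.3, 12.4 and 11.2, close in all pools. Its width of 1242 and 1112 bp in the male pools exceeded the 638 and 948 bp of female fru+ and female fru-. Among all shared promoters, those at least 1.5 times wider in males were more frequent, at 198 against 60 in fru+ (4.82% and 1.46%). In fru- they were 108 against 34 (2.63% and 0.828%). Over all 6926 shared autosomal regions the shares were 8.19% and 5.20% in fru+, and 4.62% and 2.14% in fru-. The direction was thus not particular to dsx or to promoters, and if the peak names hold, sex cannot be told apart from replicate. The splicing regulator tra was the weakest, at 3.62, 4.58, 3.86 and 4.07, and Lgr3 had a promoter peak in fewer lists.

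**Figure D1:**
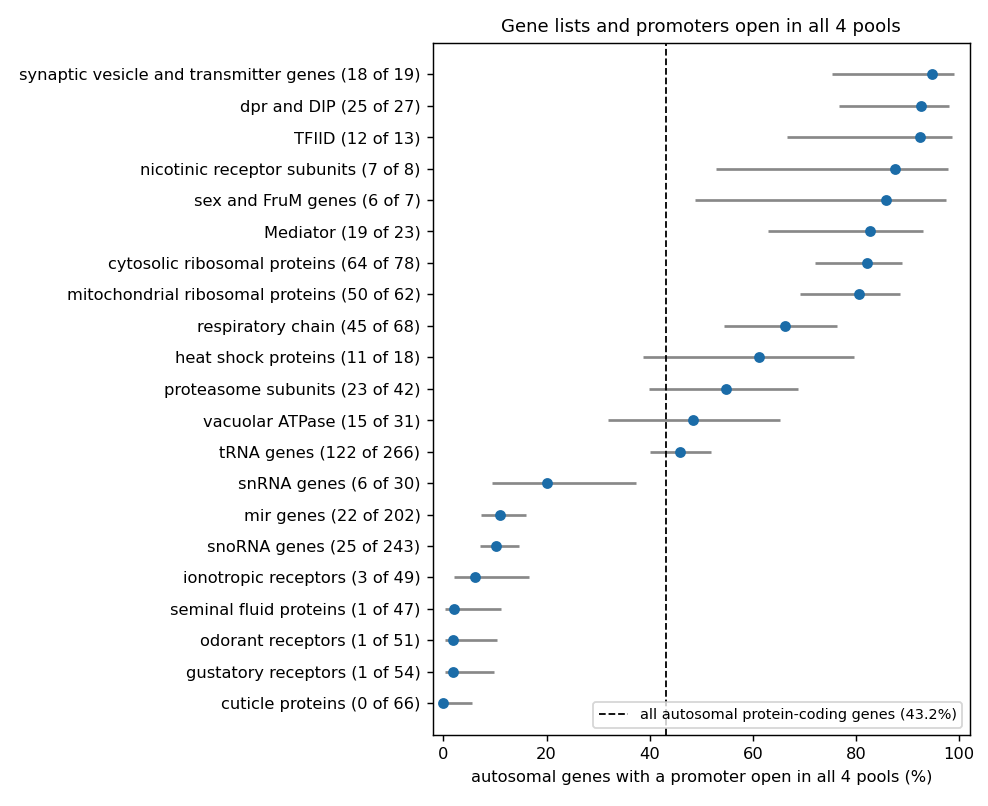
Share of autosomal genes of each list with a promoter open in all 4 pools, in percent on the x axis, with counts in brackets, 95% Wilson intervals as bars and all autosomal protein-coding genes (43.2%) as the dashed line. Neuronal, ribosomal and transcription machinery lists lie to the right of the line, with synaptic genes at 94.7%, and chemoreceptor and cuticle lists lie near 0.

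Noncoding genes were a small part. Only 187 shared promoters held no protein-coding start, and their median fold was 5.42. Of the tRNA genes, 122 of 266 had a shared promoter, but these lie in clusters and took only 65 regions. The strongest, tRNA:Arg-TCG-4-1, stood at 17.7 in male and 17.5 in female fru+ neurons, against 17.8 in male and 17.7 in female fru- neurons, and it shares its region with the start of CG14668. Small nuclear RNA genes had 6 of 30, snoRNA genes 25 of 243 and miRNA genes 22 of 202. The annotated start of a snoRNA or miRNA is usually an end of a processed RNA, and where these entries lie relative to other genes was not tested. None of 96 rRNA genes was counted (upper bound 3.85%). Near-identical copies, such as tRNA and Hsp70 genes, are uncertain because the authors kept only confidently mapped reads.

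Heat shock genes are known for promoters that are open before induction. Of 18 autosomal Hsp genes, 11 had a shared promoter (61.1%), and the interval of 38.6 to 79.7% held the background of 43.2%. Hsp70Ba stood at 14.8 in male and 16.2 in female fru+ neurons, against 17.7 in male and 18.0 in female fru- neurons. The small heat shock genes Hsp22, Hsp23, Hsp26, Hsp27, Hsp67Ba and Hsp67Bc, neighbours on 3L, all lay between 1.95 and 3.67. Fold is relative to the local background, and the part of that background in these low values was not tested.

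The strongest shared promoters by mean fold were retn at 17.9, tRNA:Arg-TCG-4-1 at 17.7, mid at 17.5, lncRNA:CR45559 at 17.3 and rib at 17.1. The genes retn, mid and rib all encode transcription factors with roles in development. For mid the values were 17.7 in male and 16.3 in female fru+ neurons, against 17.5 in male and 18.4 in female fru- neurons. Its summit lay at -223 to -221 bp from the start in all lists. For retn the values were 18.4, 16.9, 18.9 and 17.5, with summits at -266 to -244 bp. The promoters of retn, mid and rib were single peaks of 410 to 767 bp in each list.

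Shared promoters were wide. The median width was 842 bp in male and 799 bp in female fru+ neurons, against 845 bp in male and 818 bp in female fru- neurons. The other regions shared by all lists had medians between 543 and 598 bp where exonic, 496 and 545 bp where intronic and 494 and 538 bp where intergenic, each over the 4 lists. A wide region is more likely to reach a start site, so the rule itself favours width. In 97.5 to 98.5% of shared promoters a list had a single peak. The widest were Reph, nop5, cbt, dysc and CG7985, with means of 3408 to 3661 bp, and the narrowest were polo, CG13917, Rexo5, velo and Rchy1, with means of 192 to 200.8 bp. Each is named by the start nearest the male fru+ summit. The nop5 region also holds starts of Hrb27C and x16, that of CG7985 a start of Ssdp and that of Rexo5 a start of zpg. Reph measured 3736 bp in male and 3733 bp in female fru+ neurons, against 3561 bp in male and 3614 bp in female fru- neurons. The gene polo measured 188, 194, 199 and 186 bp in that order. They were picked by mean width over the same lists, and others of the 10 varied more, such as velo with 180 to 234 bp and dysc with 3084 to 3626 bp.

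Width was close to constant between pools. The ratio of the widest to the narrowest list had a median of 1.15 and was at most 2 in 96.8% of shared promoters. The narrowest value was in female fru+ for 40.6% of them and in male fru- for 12.4%. Across the 4105 promoters, the rank correlation of width between lists was 0.951 to 0.971 over the 4 pairs, and that of fold was 0.953 to 0.972. The lists share the genome's mappability and the sorted tissue, so these describe likeness only. Width and fold were related more weakly, with a rank correlation of 0.388 to 0.433 within a list. In 5 equal groups of increasing width, the median fold was 4.31, 6.09, 7.81, 8.78 and then 7.36 in the widest group. The share of divergent promoters increased with width, at 19.7% in the narrowest group and 41.0% in the widest, and the mean number of start sites was 1.38 and 2.18 in the same groups. A wider region reaches more start sites and counts as divergent only where it reaches both starts, so these increases are a description.

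Summits lay just upstream of the start. The median position was -21 bp in both fru+ lists, -24 bp in male fru- and -22 bp in female fru-. Summits were upstream in 62.2% of male and 62.1% of female fru+ promoters, against 64.8% and 63.9% in the fru- lists of males and females. The median absolute distance was 53 to 55 bp, and 48.0 to 49.0% of summits were within 50 bp. Summits of narrow promoters were closer, with 61.7 to 66.1% within 50 bp below a width of 500 bp, against 36.6 to 38.1% at 1000 bp or more. Every region reaches to within 50 bp of a start, so a narrow one leaves its summit little room to lie far away. The direction of this difference thus follows from the rule. The start taken was the nearest to each summit, which shortens the distance where several starts are annotated. In the 2133 shared promoters with a single start site the median absolute distance was 70 to 75 bp.

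A second, smaller group of summits lay downstream. Among the 2688 shared promoters with start sites on 1 strand only, 4.80 to 5.80% of summits fell 180 to 260 bp downstream in the 4 lists, against 1.97 to 2.42% in the equally long stretch from 80 to 160 bp downstream. This dip and second rise were seen in each list. From 260 to 180 bp upstream the share was 5.80 to 6.14%. These windows were not among the planned measures, so the contrast is a description. The summit was 180 to 260 bp downstream in all 4 lists for 53 of the promoters and in 1 to 3 lists for 194. The 53 had a median fold of 9.02 and a median width of 736 bp, the 194 had 6.16 and 689 bp, and all 247 together 6.83 and 694 bp. In the 790 promoters whose summit was within 50 bp in all lists, fold and width were 6.0 and 554 bp, so that over all 247 the fold was close to that of promoters with the summit at the start.

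Peaks themselves reached further into the gene. In the same 2688 promoters, the median reach upstream was 323 and 296 bp in the male and female fru+ lists, and 326 and 312 bp in the fru- lists. Downstream it was 394 and 379 bp in the fru+ lists, and 393 and 383 bp in the fru- lists, males given before females. Only 41.0 to 42.3% of them reached further upstream than downstream. The summit was thus upstream of the start in most, while the peak extended mainly into the transcribed side. The summit moved between lists by a median of 47 bp, by at most 50 bp in 52.7% and by more than 200 bp in 16.4%. The gene with the nearest start was the same in all lists for 90.6%, and for 75.1% of those with 2 or more genes.

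**Figure D2:**
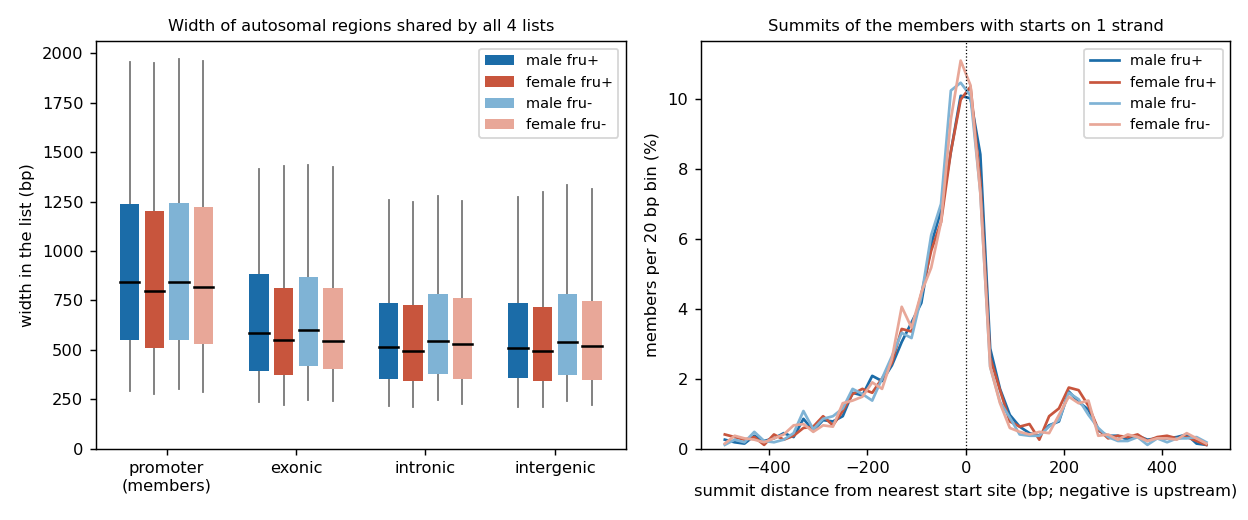
Left, width in bp of autosomal regions shared by all 4 lists, by region class and list, with bars for the quartiles, black lines for medians and whiskers from the 5th to the 95th percentile. Right, summit distance in bp from the nearest start site for the 2688 shared promoters with starts on 1 strand, in percent per 20 bp bin, with the main mode at the start and a smaller one near 200 bp downstream in every list.

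Divergent promoters were common. In 1356 shared promoters (33.0%, 31.6 to 34.5%), start sites of different genes pointed away from each other within 1000 bp, and in 1243 of these both genes were protein-coding. The start sites lay a median of 260 bp apart (quartiles 118 and 384 bp, lowest 1 and highest 989 bp). Of 1891 annotated divergent pairs of protein-coding genes, 60.1% (57.9 to 62.3%) had both starts in 1 shared promoter, 16 pairs had them in separate ones, 10.8% had only 1 start and 28.2% had neither. Genes of such pairs had their start in a shared promoter in 66.4% of 3782 cases (64.8 to 67.9%), against 28.7% of 7967 genes (27.7 to 29.7%) in no such pair. Both genes of a pair can count at 1 region, so genes are not independent.

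Width is given by spacing as a description, since a region counts as divergent only where it reaches both starts, so that distant pairs can enter only through wide regions. The median width in male fru+ was 824 bp for pairs at most 100 bp apart, 821 bp up to 200 bp, 788 bp up to 300 bp, 979 bp up to 400 bp, 1207 bp up to 600 bp and 1548 bp up to 1000 bp. In the other lists the first 3 groups had medians of 728 to 817 bp and the last 1479 to 1557 bp. Promoters with starts on 1 strand had 784 bp in male fru+. The median fold in male fru+ was between 6.04, in the closest group, and 6.95, at 400 to 600 bp. The summit lay between the starts in 55.3% of divergent promoters in male and 54.9% in female fru+ neurons, against 57.0% in male and 55.5% in female fru- neurons. It did so in 36.7 to 37.4% of pairs at most 100 bp apart and in 61.0 to 67.1% of those over 600 bp apart. A longer stretch between starts holds more of a peak, so these shares do not compare pairs of different spacing.

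The pairs at the ends of this range show the span. Atg6 and Pisd, which act in autophagy and in phospholipid synthesis, start 1 bp apart. Their region had widths of 289 bp in male and 295 bp in female fru+ neurons, against 304 bp in male and 310 bp in female fru- neurons, and folds of 2.90, 3.32, 3.52 and 3.92. CG4730 and CG5039 also start 1 bp apart, and dpa and didum 2 bp apart. At the other end, DIP-epsilon and CG13982 start 989 bp apart within 1703, 1708, 1709 and 1673 bp of open chromatin. The pairs tacc and atms (979 bp) and Hsp68 and SMC1 (977 bp) followed.

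**Figure D3:**
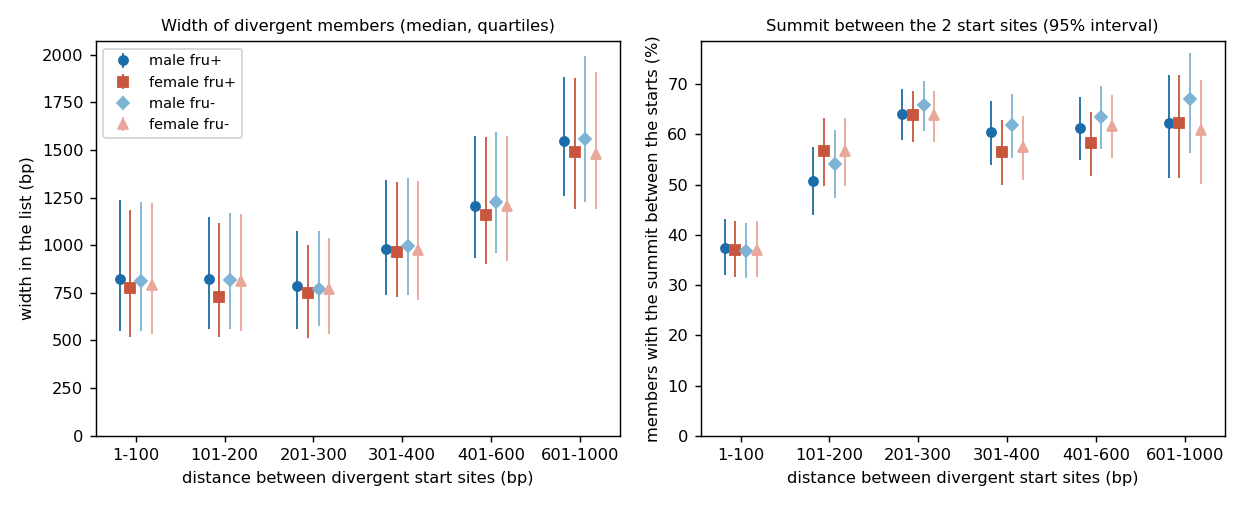
Divergent shared promoters by distance between their start sites in bp (x axis) and list. Left, width in bp, as medians with quartiles, from 728 to 824 bp up to a spacing of 300 bp and larger beyond, with each region reaching both starts by the rule; right, percent of promoters whose summit lies between the starts, with 95% Wilson intervals, near 37% for pairs at most 100 bp apart.

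Most shared promoters carried 1 gene. In 2552 a single gene started, in 1363 there were 2 genes, in 157 there were 3 and in 33 there were 4 or more. The largest sets were 10 entries each in 2 regions of the mod(mdg4) locus on 3R, a locus known for trans-splicing whose units the annotation lists separately, and 9 tRNA and snoRNA genes in a region of 2R near tRNA:Glu-TTC-1-6. Conversely, 4807 protein-coding genes had a single shared promoter, 237 had 2, 29 had 3 and 6 had 4 or more. The RNA-binding protein gene shep and CG32264 had 5 each. For shep the mean folds were 8.26, 8.57, 5.18, 5.93 and 5.14, on both sides of the median of 6.79. For CG32264 they were 5.82, 8.39, 7.30, 5.99 and 2.52, and the weakest region also held the starts of IntS10 and ntc. SNF4Agamma, Svil, bun and sif had 4 each.

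The core promoter sequence of the shared promoters was searched from 250 bases before to 50 after the most upstream start of each protein-coding gene. The DRE was searched as TATCGATA and Ohler motif 1 as GGTCACAC. The letters CAGCTG stood for the E-box bound by basic helix-loop-helix factors, and GAGAG for the element of the GAGA factor. The TATA box was read as TATAAA with nothing around it, whereas for the initiator the letters were TCAGT. Both strands were read, and none of the motifs contains another. The 4799 genes whose most upstream start lay in a shared promoter were set beside 6162 genes with no promoter peak and all 11749 autosomal protein-coding genes. The motif letters had no part in choosing the regions.

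DRE was in 15.3% (14.3 to 16.4%) of the shared promoters, against 2.97% (2.57 to 3.42%) of those with no peak and 8.56% of all. Ohler motif 1 was in 15% (14.0 to 16.0%), against 1.57% (1.29 to 1.92%) and 7.53%. The E-box was in 23.9% (22.7 to 25.1%), against 12.5% (11.7 to 13.4%) and 18.0%. Thus DRE, Ohler motif 1 and the E-box were more frequent in the shared promoters than in those with no peak, with intervals apart. Windows of divergent genes can overlap, so a match can count for both genes of a pair, whereas the intervals take genes as independent. GAGA was in 29.3% (28.0 to 30.6%), against 31.3% (30.2 to 32.5%) and 30.1% of all, with overlapping intervals.

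The TATA box showed the reverse. On the sense strand and beginning 45 to 20 bases before the start, TATAAA was in 2.27% (1.89 to 2.73%) of shared promoters, against 15.5% (14.6 to 16.4%) of promoters with no peak and 9.28% of all. The initiator TCAGT, with its A within 5 bases of the start, was in 7.81% (7.09 to 8.61%), against 12.5% (11.7 to 13.4%) and 10.3%. Anywhere in the window and on either strand, TATAAA was in 43.5% of shared promoters, 49.8% of those with no peak and 46.8% of all, and TCAGT was in 45.6%, 56.9% and 51.5%. Their GC content was alike, with medians of 37.0%, 38.7% and 37.7%.

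Promoters with different motifs also differed in shape. Those with DRE had a median width of 797 bp, a fold of 6.60 and a summit 38.5 bp from a start. With Ohler motif 1 the values were 758 bp, 6.50 and 33.0 bp. For all 4799 the values were 850 bp, 6.87 and 43.5 bp, so both kinds were narrower, with summits closer to a start. With the initiator at the start the values were 983 bp, 7.90 and 72.5 bp, and with GAGA 939 bp, 7.39 and 56.5 bp. Counted per gene, so that a divergent region can count for each of its genes, a divergent partner was present for 55.1% (53.7 to 56.5%) of all 4799. The share was 65.9% (62.3 to 69.2%) with DRE, 62.2% (58.6 to 65.6%) with Ohler motif 1 and 61.0% (58.2 to 63.8%) with the E-box. It was 40.4% (37.9 to 43.0%) with GAGA, 42.2% (33.4 to 51.6%) with the TATA box and 25.3% (21.2 to 30.0%) with the initiator. The 109 TATA box promoters had 895.5 bp, 7.15 and 62.0 bp. These medians of width, fold and distance are counted per gene as well, and the distance is to the nearest start of any gene. Divergent promoters had a median distance of 38 to 39 bp over the lists, against 67 to 71 bp for promoters with starts on 1 strand. The part of divergence in the differences between motifs was not tested. The median position of match centres was -39 bases from the start for DRE, -6 for Ohler motif 1 and -99.5 for GAGA. In the sequences printed above, Taf1 shows Ohler motif 1 and Hsp70Ba shows GAGA, whereas TATAAA of Hsp70Ba begins just upstream of the stretch counted as a TATA box.

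**Figure D4:**
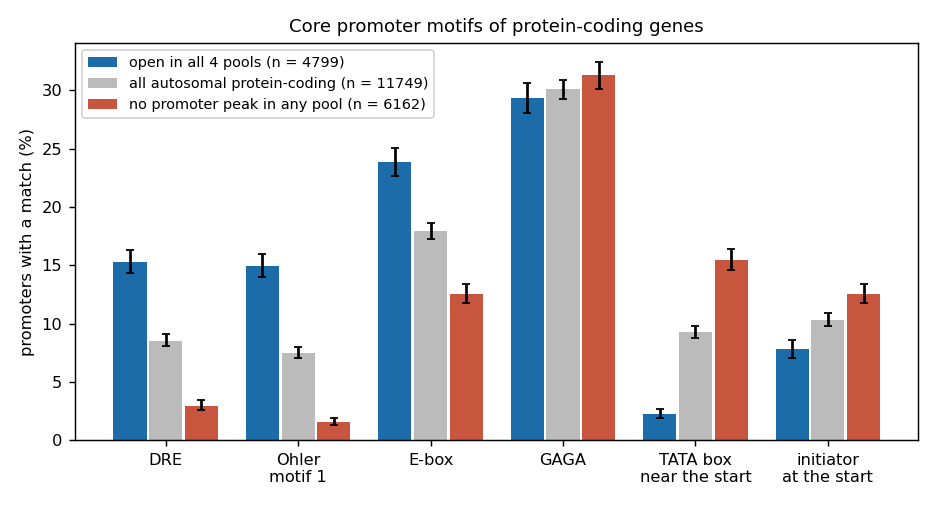
Percent of promoters with a match to each core promoter motif, with 95% Wilson intervals, for protein-coding genes with a promoter open in all 4 pools (4799), all autosomal protein-coding genes (11749) and genes with no promoter peak (6162). DRE and Ohler motif 1 are about 15% in the first set and at most 2.97% in the last, and the TATA box is 2.27% and 15.5%.

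The strength of the shared promoters differed little between pools. The ratio of fold enrichment had a median of 0.982 for male fru+ over female fru+, 0.931 for male fru+ over male fru-, 0.955 for female fru+ over female fru- and 1.007 for male fru- over female fru-. The same medians over all 6926 shared autosomal regions were 0.986, 0.942, 0.962 and 1.005. The highest list was at least 1.5 times the lowest in 138 shared promoters (3.36%, 2.85 to 3.96%), against 17.6% (16.2 to 19.0%) of the 2821 other regions shared by all lists. Weaker regions vary more, so levels were compared too. Between mean folds of 4 and 6 the shares were 5.26% (4.06 to 6.78%) of promoters and 20.1% (17.4 to 23.1%) of other regions, and between 6 and 9 they were 1.89% (1.30 to 2.74%) and 5.59% (3.61 to 8.56%). At 9 and over, 0.567% (0.260 to 1.23%) and 1.32% (0.448 to 3.80%) gave overlapping intervals.

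With male fru+ against female fru+, 17 shared promoters were at least 1.5 times higher in male fru+ and 20 in female fru+, or 0.414% and 0.487%. Over all 6926 regions the shares past this fold were 1.80% and 1.89%. Between the male pools the counts were 6 in fru+ and 42 in fru-, beside 1.69% and 2.40% of all regions. Between the female pools they were 2 in fru+ and 19 in fru-, beside 0.505% and 0.736%. Between the fru- pools they were 5 in males and 2 in females, beside 0.159% and 0.101%. In each case the share among promoters was below that of all regions. In the comparisons of fru+ with fru-, more promoters passed on the fru- side, as did the median ratios under 1. With each ratio divided by its median over all regions, the counts were 24 and 14 between the fru+ pools of males and females. Between fru+ and fru- they were then 15 and 19 in males and 4 and 11 in females.

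Width gave more promoters past 1.5 times than fold did, but again a lower share than over all regions in each case. There were 198 wider in male fru+ and 60 wider in female fru+. These were 4.82% and 1.46% of shared promoters, beside 8.19% and 5.20% of all regions. Set against male fru-, male fru+ was wider at 79 and narrower at 103 (1.92% and 2.51%, beside 4.65% and 7.31% of all regions). Between the female pools, fru+ was wider at 61 and fru- at 130 (1.49% and 3.17%, beside 3.68% and 6.22% of all regions). Between the fru- pools, males were wider at 108 and females at 34 (2.63% and 0.828%, beside 4.62% and 2.14% of all regions). The list of female fru+, with the lowest median -log10 q at shared promoters (72.7, with 90.5 in male fru+, and 112 and 91.7 in the male and female fru- lists), had the fewer wide promoters in both of its comparisons. Whether list depth has a part in this was not tested.

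The promoters that were highest in male fru+ relative to the mean of the other 3 lists were lncRNA:CR44151, CG18659, lncRNA:CR46530, beat-IIb and CG30460, with ratios of 1.57 to 1.69. They were picked for this ratio, so the values are a description. The lncRNA:CR46530 promoter, which also holds a start of the transcription factor gene sim, stood at 13.2 in male and 8.59 in female fru+ neurons, against 8.55 in male and 7.24 in female fru- neurons. CG18659 stood at 8.25, 4.87, 5.28 and 4.66 in the same order. In both, male fru+ was the one high pool and the other pools were close together. The gene beat-IIb, of a family of axon guidance and adhesion proteins, has 2 shared promoters. The downstream one stood at 5.20 in male and 2.69 in female fru+ neurons, against 3.77 in male and 3.28 in female fru- neurons. The upstream one, which also holds a start of CG44257, was at 9.52, 9.21, 10.3 and 10.2, so male fru+ did not stand apart at that start. For lncRNA:CR44151 the values were 4.80, 3.47, 2.70 and 2.33, with both fru+ pools above both fru- pools.

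The promoters lowest in male fru+ were asl, p130CAS, Picot, SP1029 and Sec31, with ratios of 0.539 to 0.602. The gene asl, which encodes the centriole protein Asterless, stood at 5.54 in male and 10.2 in female fru+ neurons, against 10.2 in male and 10.5 in female fru- neurons, and its width was 469, 710, 899 and 651 bp. The adaptor protein gene p130CAS has 3 shared promoters. At the most upstream one, the picked one, male fru+ had 4.64, against 8.19 in female fru+, and 8.15 and 8.57 in the fru- pools of males and females. Its summits lay 938 to 1021 bp inside the gene, and its width was 638 bp in male fru+, against 1585 to 1627 bp in the other pools. The next stood at 4.80, 5.64, 6.89 and 5.29 and the last at 4.01, 5.24, 5.99 and 5.86, and male fru+ was lowest at each. Sec31, of the coat of vesicles that leave the endoplasmic reticulum, stood at 4.01, 6.82, 6.59 and 6.55. Picot and SP1029 had another pattern, with female fru+ next to male fru+. Picot, a putative phosphate cotransporter gene, stood at 2.90 in male fru+ and 3.21 in female fru+, against 6.34 in male fru- and 5.40 in female fru-. SP1029 stood at 3.11 and 3.93, against 5.64 and 5.98.

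**Figure D5:**
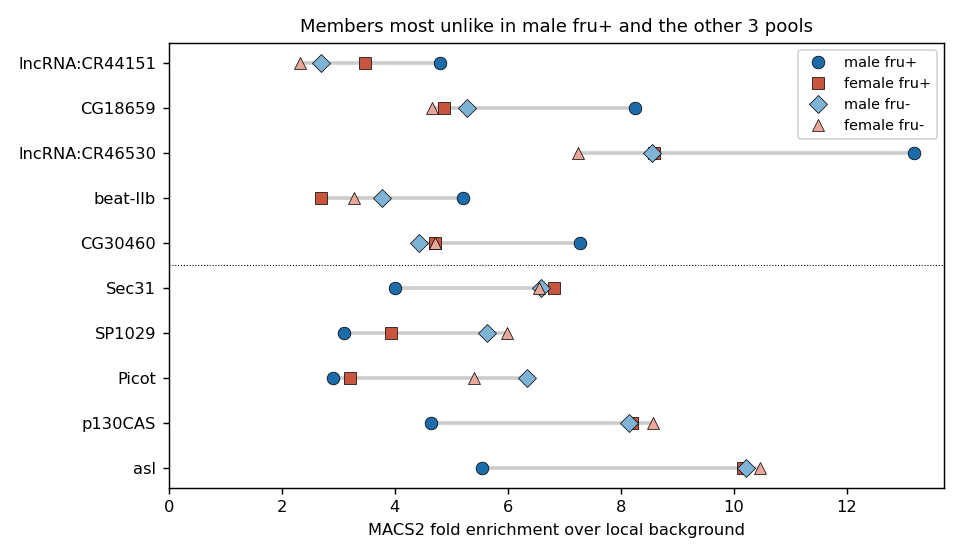
Fold enrichment over local background (x axis) in each of the 4 lists for the 5 shared promoters highest (top) and the 5 lowest (bottom) in male fru+ relative to the mean of the other lists, by which they were picked. Male fru+ stands apart at asl (5.54 against 10.2 to 10.5), whereas at Picot and SP1029 both fru+ pools lie below both fru- pools.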

How the data were processed

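Open chromatin of 8 samples in 4 groups was profiled by ATAC-seq. According to the methods, the authors used cutadapt for trimming, Bowtie2 for alignment to dm6, Picard against duplicates and SAMtools for a mapping quality of at least 30, and called peaks with MACS2 at an FDR of 0.001. Versions are not given in the sources used here, and no shift to the Tn5 cut site was described. The deposited lists hold peak coordinates, a score, the fold enrichment at the summit as a ratio to local background, the p-value and q-value on a -log10 scale and the summit offset, as the authors' MACS2 wrote them. The score was not analysed.

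Peaks were merged in Python 3.11.15 (numpy 2.4.6, statsmodels 0.14.6, matplotlib 3.10.9). Per list, width was the sum of peak widths in a region, fold the highest fold, and the summit that of the peak with the highest -log10 q. Start sites were those of Ensembl release 115 (BDGP6.54), in dm6 coordinates, without transposable elements, and all peak ends lay within the chromosome lengths. Single small-RNA transcripts have gene entries of their own (372 on the autosomes). The nearest gene is that of the start nearest the male fru+ summit. Divergent starts were at most 1000 bp apart. Read depth per sample was not analysed, as only peak lists were used, so intervals (95%, Wilson) cover counting error only. The functions were tested on simulated peaks. Of the synaptic list, the symbols RIM-BP and VMAT found no gene.

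Named promoters were the 5 strongest, 5 widest, 5 narrowest, the 5 highest and 5 lowest in male fru+ over the other lists, those with most genes, the closest and most distant divergent pairs, and the highest and lowest of each gene list. The members and the lists were chosen with earlier results of these data known. CG44257, IntS10 and ntc and the genes with most promoters were named after their values were seen. Alternatives concerned the window, the q threshold, the overlap, the list length, the start sites, the ratio and its scale.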

Additional observations from a re-analysis of the deposited data

Results flagged for a closer look

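The median fold ratio of male over female at shared promoters lay on opposite sides of 1 by fru status, at 0.982 in the fru+ lists (male fru+ over female fru+) and 1.007 in the fru- lists (male fru- over female fru-). With 1 list per group the difference was not tested.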

How the results depend on the processing

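Of 80 alternative values for 15 results, 60 stayed within 1.5 times (counts), the interval (shares) or 1 SD over lists (widths, distances). The number of shared promoters was 3918 to 4297 under the planned settings. Leaving out a list, added after seeing the data, gave 4158 without male fru+, 4201 without female fru+, 4133 without male fru- and 4147 without female fru-, and 4246 without both lists whose labels disagree. With a window of 500 bp, the promoter part of shared regions was 62.0%, the summit distance 58.3 bp, the divergent share 36.7% and the share of protein-coding genes 45.8%. When peaks had to cover at least 0.5 of the region, the promoter part was 64.6% and the gene share 41.8%. With protein-coding starts only, the part was 56.6% and the summit distance 52.0 bp, and with no window the distance was 52.5 bp. Divergent starts at most 500 bp apart gave 28.9%. At 2-fold instead of 1.5-fold, promoters differing in fold numbered 0 for male fru+ against female fru+, 1 for male fru+ against male fru-, 0 for female fru+ against female fru- and 0 for male fru- against female fru-. At 2-fold in width they numbered 73, 45, 43 and 18 in the same order of pairs. With the mean instead of the highest fold of a region, 39 differed between female fru+ and female fru- (21 before) and 25 between male fru- and female fru- (7 before). The cause of these shifts was not tested beyond the changed threshold or window itself.

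No paired analysis was possible because each group has 1 pooled list with no value per replicate, and for the same reason leaving out a replicate could not be run. No read counts were analysed, so accessibility below the peak threshold was not measured.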
